A study of Caenorhabditis elegans with 2 samples.

Results

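The 325 regions described here are intergenic binding peaks of F44E2.7 on the 5 autosomes of Caenorhabditis elegans. They were selected on measured values from a ranked list made from both biological replicates, which holds 108809 peaks. A peak was taken when the authors' score was 540 or more, which 3174 peaks (2.92%) reached. Peaks with a score of 830 or more that were missing from the matching thresholded list (92 peaks) and the end of chromosome V past position 19900000 (165 peaks) were left out, so 2917 peaks remained, of which 2378 were autosomal. A summit counted as intergenic when it lay in no annotated gene, outside the window from 1000 bp upstream to 200 bp downstream of every protein-coding start, and more than 200 bp from any tRNA, snoRNA, snRNA or ncRNA gene. On the same autosomes 452 listed summits lay in introns, 610 in coding exons and 483 in promoter windows.

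The protein was immunoprecipitated with an anti-GFP antibody and the bound DNA was sequenced (ChIP-seq). All animals were L4 larvae of strain OP381, collected at 48 hours after synchronization as starved L1 larvae. They carry the transgene wgIs381, in which F44E2.7 is fused to TY1, EGFP and 3xFLAG tags and delivered together with unc-119(+), in an unc-119(tm4063) background. There were 2 biological replicates and 1 group, with whole animals as the material, so the tissue in which a site was bound cannot be read from these lists. The labels name a possible control experiment, which was not analysed here. The lists hold no read counts, so the sequencing depth is unknown.

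In the compact worm genome most protein-coding genes have their regulatory DNA close upstream, and much of the DNA between genes, above all on the chromosome arms, consists of tandem repeats, transposon remnants and decayed gene copies. Genes for tRNAs carry their promoter inside the transcribed region. It consists of an A box and a B box, which are bound by the factor TFIIIC before RNA polymerase III is recruited. Decayed tRNA copies can keep these boxes after the tRNA gene itself is no longer annotated.

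The sequences of 7 of the strongest of these peaks are given first. They were picked because they show a snoRNA copy or the 2 kinds of sequence with the highest median signals, tRNA-like copies and tandem repeats. The sequences were read from the RefSeq genome of build WBcel235, which has the same chromosomes as the ce11 build of the peak coordinates. Peaks are numbered P1 to P325 by descending signal. Strong peaks without a stretch to mark, such as P5, P12 and P13, are not printed. P2 (chrIV:2740176-2740296, plus strand), P7 (chrV:1561339-1561459, plus strand) and P10 (chrIII:6661786-6661906, minus strand) are copies of a single sequence on 3 chromosomes. The A box, written TGGC, any 2 bases, then AGTGG, is in capitals, as is the B box, GTTCNANNC, where it is present.
P2: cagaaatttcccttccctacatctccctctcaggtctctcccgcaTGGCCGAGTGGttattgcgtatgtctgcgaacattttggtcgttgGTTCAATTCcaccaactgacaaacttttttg
P7: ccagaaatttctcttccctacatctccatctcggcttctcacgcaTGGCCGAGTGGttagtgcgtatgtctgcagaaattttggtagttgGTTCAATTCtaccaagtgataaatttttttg
P10: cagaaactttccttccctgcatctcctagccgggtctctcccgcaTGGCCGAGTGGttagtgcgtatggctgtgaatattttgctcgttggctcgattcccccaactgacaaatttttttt
P2 and P7 have a B box 45 bp downstream of the start of the A box, and P10 has no match to the B box at that place. P4 (chrV:5667457-5667577, minus strand) belongs to another tRNA-like pair and matches only the B box, in capitals. Its stretch tggtcaagtgg has T in place of the C of the A box as written above, and so was not counted as a match.
P4: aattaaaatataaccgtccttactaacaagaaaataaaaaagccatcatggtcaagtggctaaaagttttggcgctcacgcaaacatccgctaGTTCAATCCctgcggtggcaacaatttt
P9 (chrII:7042269-7042399, plus strand) holds a copy of a snoRNA gene located on another chromosome, and the aligned bases are in capitals.
P9: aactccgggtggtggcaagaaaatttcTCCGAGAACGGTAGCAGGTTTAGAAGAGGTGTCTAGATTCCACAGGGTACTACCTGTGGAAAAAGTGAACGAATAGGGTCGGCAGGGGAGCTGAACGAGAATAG
P1 (chrIII:1807422-1807522, plus strand), the peak of highest signal, lies in a tandem repeat with a period of 19 bp. P11 (chrII:695235-695335, plus strand) lies in a GC-rich tandem repeat with a period of 15 bp. In both, 1 period is in capitals.
P1: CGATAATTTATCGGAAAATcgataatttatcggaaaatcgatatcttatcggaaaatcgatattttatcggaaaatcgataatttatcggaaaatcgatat
P11: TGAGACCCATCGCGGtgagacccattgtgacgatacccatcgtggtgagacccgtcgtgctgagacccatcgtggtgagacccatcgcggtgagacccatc

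All 325 peaks were 270 bp wide with the summit in the centre. Their signal, which measures enrichment in units the authors do not state, had a median of 64.2 with quartiles of 57.3 and 73.2 and a range from 3.11 to 221. The score reached its ceiling of 1000 in 47 peaks and 830 or more in 77, or 23.7%. These 77 are the ones in the thresholded list, which holds 0.823% of all ranked peaks, and 75 overlapped the conservative list, which holds 0.791% of the ranked peaks behind it. Score and signal chose the peaks and are given as a description only. Just inside the score minimum, 8 intergenic peaks with scores of 540 to 545 had a median signal of 56.6 (48.1 to 65.5). Just outside it, 10 with scores of 535 to 539 had a median of 54.6 (45.6 to 64), so the minimum did not separate 2 levels of signal.

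The low end of the signal range came mostly from paired summits. Signal was under 30 in 12 peaks, and 9 of these lay 199 to 224 bp from another of the 325 peaks whose score was equal within 1 unit. The weaker summits of these pairs had signals of 3.11 to 12.3, and their neighbours had signals of 33.4 to 67.2. P325 (signal 3.11) and P258 (signal 55.8), 201 bp apart, overlapped the same peak in replicate 1 and the same peak in replicate 2.

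Almost every intergenic peak overlapped a ranked peak in each replicate, but few passed the score minimum in a replicate alone. In replicate 1, 304 of the 325 peaks overlapped a ranked peak by at least 1 bp, with a median signal of 30.9. In replicate 2 the number was 321, with a median signal of 36.7. Both replicates had an overlapping peak at 300 and neither at 0 of the 325. The ranked lists of the replicates hold 65299 and 71635 peaks with no score minimum. The share of all peaks with such an overlap was not computed, so these counts have no background.

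The score of the overlapping replicate peak was 540 or more for 46 peaks in replicate 1 (14.2%), against 0.789% of all peaks ranked there. In replicate 2 it was so for 60 (18.5%), against 1.11% of all. Thresholded peaks were overlapped at 18 positions in replicate 1 (5.54%, against 0.273% of its ranked peaks) and at 36 in replicate 2 (11.1%, against 0.445%). The replicates are part of the list that chose the regions, so these shares describe the list and are no separate support for it. A total of 14 regions overlapped a thresholded peak in both replicates, 26 in a single replicate, and 242 reached 540 in neither.

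The strongest regions were high in both replicates. P1, between rimb-1 (a synaptic RIM-binding protein) and the calpain gene clp-4, had a signal of 107 in replicate 1 and 94.3 in replicate 2. P2, 2786 bp upstream of the nuclear hormone receptor gene nhr-277, had 76.8 and 128. P3, on chromosome I between Y106G6H.9 and duo-3, had 101 and 115. P4, between C14C11.7 and pqn-13, had 89.1 and 95.8. All 4 overlapped thresholded peaks in both replicates and lay far above the medians of 30.9 and 36.7. At P7, between the chemoreceptor gene srsx-8 and the phosphatase gene cdc-25.2, replicate 1 had 52.1 and replicate 2 had 92.6, and only the second was thresholded. At P20, which fills the short gap between mrpl-40 (82 bp away) and pat-4 (128 bp away), a mitochondrial ribosomal protein gene and the integrin-linked kinase gene, the values were 35 and 72.5.

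The 325 regions fell into 5 kinds by sequence, each region being put in the first kind whose definition it met. The order was tRNA-like (23 regions), tandem repeat (31), other repeated DNA (49), resembling another region of the set (34), and single copy (188, or 57.8%). Median signals in that order were 84.4, 72, 66.4, 62.8 and 61.8. In the thresholded list were 14 of the 23 tRNA-like regions (60.9%), 13 of the 31 tandem repeats (41.9%) and 30 of the 188 single-copy regions (16%). The 20 highest signals comprised 7 tRNA-like regions, 4 tandem repeats, 4 other repeats, 1 that resembles another region and 4 single-copy regions. The kinds overlapped widely in signal, since single-copy regions ranged from 3.11 to 159.8. The kinds were defined after the data had been seen and signal also chose the regions, so the difference was not tested. Reads from near-identical copies cannot be placed with certainty. The labels do not say how the authors treated them, so signals at repeated sequences are uncertain.

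**Figure D1:**
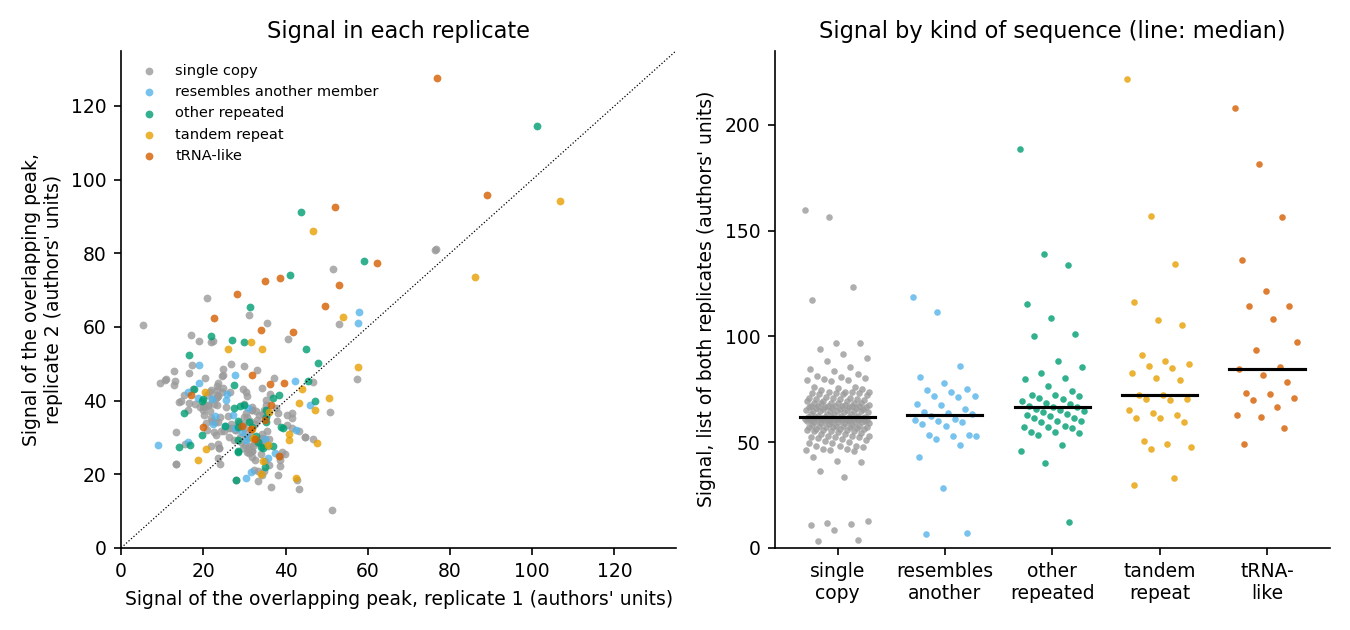
Left, signal of the overlapping peak in replicate 1 (horizontal) and replicate 2 (vertical), in the authors' units, for the 300 regions with a peak in both, coloured by kind of sequence, with a dotted line of equality. Right, signal in the list of both replicates for all 325 regions by kind, with the median as a line; medians run from 61.8 for single-copy regions to 84.4 for tRNA-like regions, and the kinds overlap.

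The 23 tRNA-like regions have an A box within 50 bp of the summit or a blastn match (e-value of 1e-05 or lower, within 100 bp of the summit) to an annotated tRNA gene or tRNA pseudogene. They made up 7.08% of the regions (exact 95% interval 4.54 to 10.4), against 0.522% of 15723 windows spaced over DNA that meets the same position rules, called eligible DNA below. In the intron peaks the share was 5.97% (27 of 452, 3.97 to 8.57), in coding exon peaks 2 of 610 (0.328%) and in promoter peaks 9 of 483 (1.86%). The intervals of the intergenic and the intron peaks overlapped widely, and both lay above those of the other 2 classes, which ended at 1.18% and 3.51%. Every tRNA-like region had an overlapping peak in both replicates, as did 300 of all 325 regions.

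The A box was counted only as the fixed word given above, and A boxes that differ from it were missed. The shares and counts below are those of this word, not of all A boxes. The word was rare in eligible DNA and more frequent at the summits. It occurred in 12 of 325 summit windows of 101 bp (3.69%), in 1 of 650 flanking windows centred 300 bp away (0.154%) and in 0.116% of 157226 eligible windows. It was also present at 12 of 452 intron peaks (2.65%) and at 23 of the 402 peaks at annotated small RNA genes (5.72%), so it was not particular to the intergenic regions. In 9 of the 12 regions a B box began 44 or 45 bp downstream of the start of the A box, on the same strand. Seen from the genome, eligible DNA held 205 A boxes, and 13 of them (6.34%, 3.42 to 10.6) had a listed intergenic peak within 100 bp, compared with 0.412% of eligible windows. Any ranked peak, without a score minimum, lay within 100 bp of 86 (42.0%), compared with 17.7% of eligible windows. With a B box within 100 bp downstream 10 of 125 copies had a listed peak, and without it 3 of 80, with intervals of 3.90 to 14.2% and 0.780 to 10.6% that overlap. Inside annotated tRNA genes, 17 of 38 A boxes had a listed peak within 100 bp. Most A boxes in eligible DNA therefore had no listed peak.

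**Figure D2:**
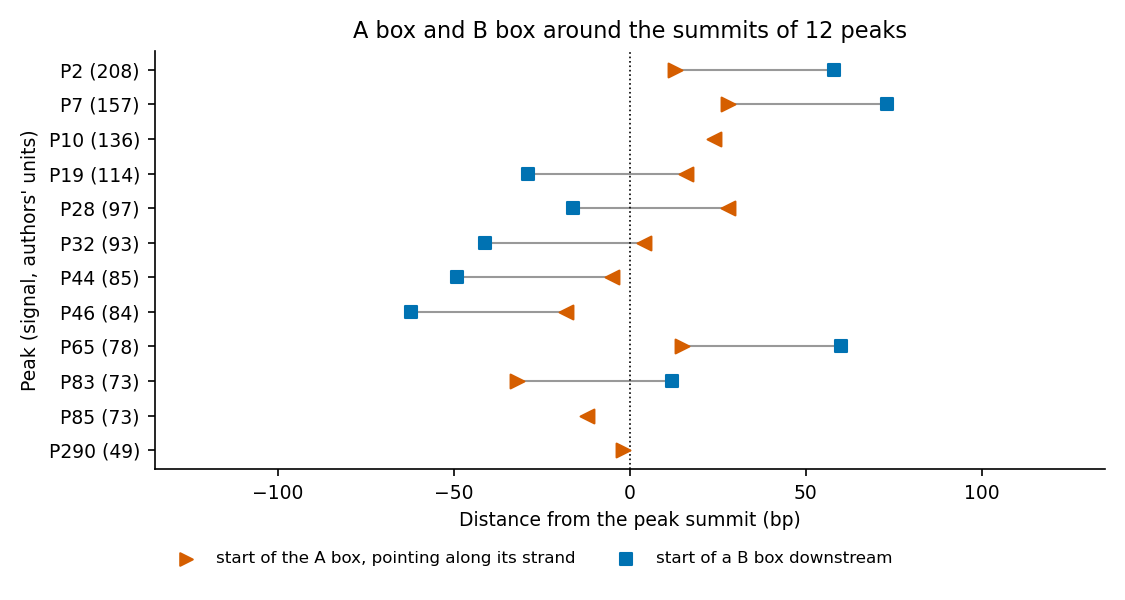
Start of the A box (triangle, pointing along its strand) and of a B box downstream of it (square) relative to the summit, in bp, for the 12 regions with an A box, ordered by signal (in parentheses). The 12 were chosen for an A box within 50 bp of the summit, so its closeness to the summit is no separate result. It starts within 32 bp of the summit in all 12, and 9 have a B box 44 or 45 bp downstream.

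The largest group of related tRNA-like regions had 8 copies (P2, P7, P10, P32, P44, P65, P85 and P253) on all 5 autosomes, which aligned to each other at 79.4 to 93.9% identity. All 8 matched Y94H6A.t1, a tRNA pseudogene in RefSeq on chromosome IV at 2740214 to 2740286, which starts 6 bp from the summit of P2. Of the 325 regions, P2 alone lay within 200 bp of a RefSeq tRNA pseudogene, and the other 7 copies lie where none is annotated. Of the 8, 7 have the A box and 7 are in the thresholded list. Their signals ranged from 56.6 at P253 to 208 at P2 with a median of 89.5, well above the median of all regions. In replicate 1 P10 had 62.2, P32 had 28.2, P44 had 34.1, P65 had 22.5, P85 had 31.9 and P253 had 17.0. In replicate 2 these 6 had 77.3, 68.9, 59.1, 62.4, 47.0 and 41.6 in the same order. Replicate 2 was the higher in all 8 copies, while its median over all regions was also the higher.

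Other tRNA-like regions belonged to smaller groups. P4 (signal 181) and P14 (122), on chromosomes V and II, were 85.2% identical over 128 bp, and both matched the tRNA pseudogene K10B2.t1. P14 had a signal of 53.1 in replicate 1 and 71.5 in replicate 2. P19 (signal 114) and P28 (97.3) lie 402 bp apart on chromosome III between ckr-2, a cholecystokinin-receptor relative, and the cuticle gene dpy-1. Each has an A box with a B box downstream, and the nearest annotated tRNA gene is 1114 bp from P19 and 1516 bp from P28. P46 and P83, also on chromosome III, were 95.2% identical over 188 bp and had signals of 84.4 and 73.1. Of the 325 regions, 1 lay within 1000 bp of an annotated tRNA gene and 0 within 500 bp.

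Sequence similar to other annotated non-coding RNA genes was also found among the regions. P9, between cin-4 (a topoisomerase) and the elongation factor gene tcer-1, was 94.2% identical over 104 bp to the snoRNA gene Y6B3B.15 on chromosome I, with the match starting 3 bp before the summit. It had a signal of 43.7 in replicate 1 and 91.1 in replicate 2. P176, on chromosome II, was 95.5% identical over 112 bp to the snoRNA gene Y51H4A.940 on chromosome IV. P21, P27 and P42, on chromosome V, were 96.3 to 96.9% identical to the ncRNA gene K02E11.15, which lies elsewhere on that chromosome. P21 is 1184 bp from the ferritin gene ftn-1 and had 57.7 and 60.9 in the 2 replicates, P27 had 47.9 and 50.2, and P42 had 47.1 and 39.97, so all 3 were above both replicate medians. In all, 83 regions (25.5%) matched an annotated non-coding RNA gene or a tRNA pseudogene, and 65 of them matched a gene of the ncRNA class. The share of eligible windows or of other peaks with such a match was not measured, so these counts show no excess. Matches to the ncRNA class varied in length, from 25 bp at P307 to 201 bp at P99. That class is not limited to small RNAs, since its member Y116A8C.48 reaches from 17137348 to 17142989 on chromosome IV. What these ncRNA genes do is not annotated in the tables used.

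Tandem repeats, defined as a self-match of at least 80% at a period of 5 to 100 bp within 100 bp of the summit, held 31 regions (9.54%), against 2.49% of eligible windows. Their median period was 27 bp. P1 has the lowest base composition among the strongest regions, with 27.7% G and C. P11, P17 and P105 lie within 3199 bp on chromosome II between T02H6.3 and T02H6.11, share the 15 bp period and matched parts of the ncRNA gene Y116A8C.48 on chromosome IV. Their signals fell with position, from 134 through 116 to 70.4. In replicate 1 they had 46.8, 53.9 and 40.8 and in replicate 2 they had 86.0, 62.6 and 31.0, so the order of P11 and P17 differed between the replicates. A further 7 tandem repeats with a median period of 25 bp (P6, P25, P34, P36, P61, P313 and P314) resembled each other across 3 chromosomes and ranged in signal from 29.8 to 157.

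By sequence similarity, 110 of the 325 regions matched another of them, in 31 groups, of which 16 were pairs and 8 had 5 or more copies. The same count was not made for eligible windows or other peaks, so it shows no excess. The largest had 11 regions on all 5 autosomes, with signals of 53.1 to 109. A group of 7 regions on 4 chromosomes (P56, P126, P138, P150, P170, P179 and P292) resembled each other at 71.7 to 84.6% identity, and 6 of them hold 2 copies of TTAGGC in a row, the unit of worm telomeres. The signals of the 7, 48.7 to 80.3, were close to those of all regions. Those 2 copies in a row were at 1.85% of the 325 summits, 1.77% of intron peaks and 0.206% of eligible windows. P56 lies between the C-type lectin gene clec-78 and hlh-30, which encodes the worm TFEB relative, and had 38.3 in replicate 1 and 41.6 in replicate 2.

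The DNA under these peaks was more often repeated than that under peaks in genes. At 85 of the 325 regions (26.2%, 21.5 to 31.3), at least 50% of the 24-mers in the summit window occurred elsewhere in the genome, compared with 18.1% of eligible windows. The share was 17.5% at intron peaks (79 of 452), 2.13% at coding exon peaks (13 of 610) and 8.28% at promoter peaks (40 of 483). The differences from the intergenic regions passed Fisher's exact test, two-sided, with p-values adjusted over 15 comparisons by the Benjamini-Hochberg procedure of 0.0160, 3.15e-28 and 8.01e-11. The difference from intron peaks missed the threshold of 0.05 among the 77 regions with a score of 830 or more and in the lists of either replicate alone. At the other end, 164 regions (50.5%) had no repeated 24-mer. The comparison of repeated sequence with eligible windows was not tested. How much of all intron, coding exon and promoter DNA is repeated was not measured. The tests therefore compare classes of peaks and cannot separate the peaks from the kind of DNA they lie in. Peaks are not replicates of a condition, and these p-values describe this list.

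Base composition rose towards the summit. The mean G and C content was 46.4% (SD 8.72, n = 325) in the summit window and 36% (SD 7.06) in the flanks, a difference of 10.4 points (SD 10.6), and 269 of the 325 regions were above their own flanks. Eligible windows had a mean of 33.8% (SD 8.25). Of the regions, 101 (31.1%) had 50% or more, compared with 3.55% of eligible windows. The single-copy regions had a mean of 46.5% at the summit and 35.5% in the flanks, whereas the tandem repeats had 41.9% and 40.1%. P1, the region of highest signal, was AT-rich, at 27.7% against 22.8% in its flanks. A content of 50% or more was less frequent than at coding exon peaks (45.7%, adjusted p = 7.04e-05, Fisher's exact test) and promoter peaks (40.8%, adjusted p = 0.0177), and the difference from intron peaks (35.4%, adjusted p = 0.252) did not pass. With summit windows of 51 or 201 bp the difference from promoter peaks did not pass either, at -3.48 and -4.86 points (adjusted p of 0.433 and 0.155). The difference from coding exon peaks missed the threshold with scores of 830 or more (-19.3 points, Fisher's exact test, adjusted p = 0.0774) and in the list of replicate 1 alone (-11.7 points, adjusted p = 0.658). That from intron peaks passed in the list of replicate 2 alone (-20.6 points, Fisher's exact test, adjusted p = 0.0303). The G and C content of all intron, coding exon and promoter DNA was not measured. These tests therefore compare classes of peaks and cannot separate the peaks from the kind of DNA they lie in.

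**Figure D3:**
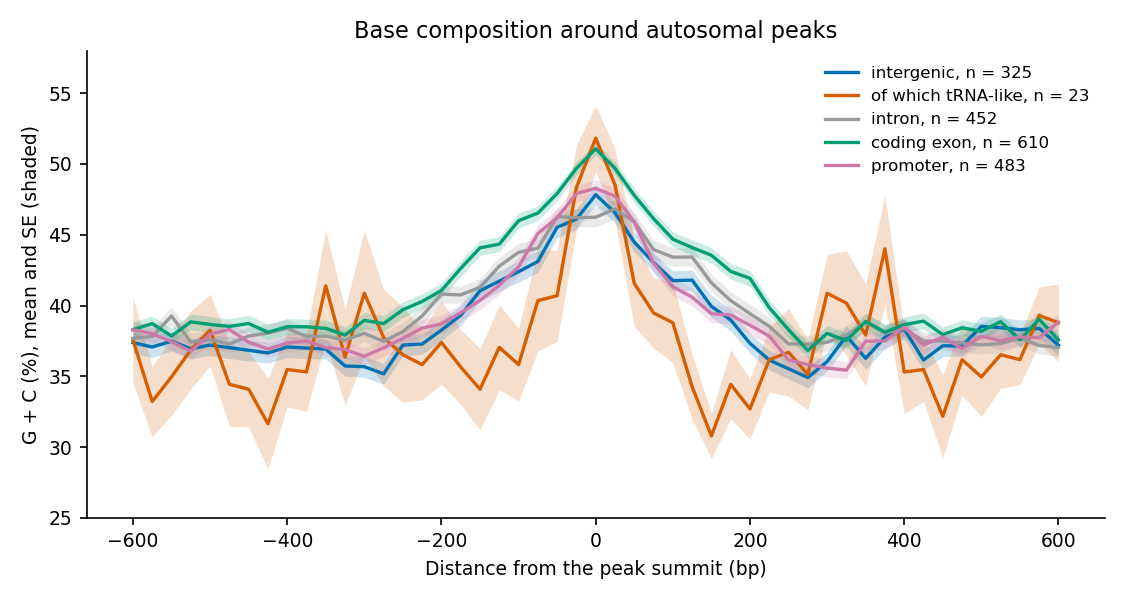
Mean G and C content (%) with its SE (shaded) by distance from the summit (bp) for the intergenic regions, the tRNA-like ones among them, and the intron, coding exon and promoter peaks of the same list. All classes rise towards the summit, where the intergenic regions reach 47.8%, from 37.4% and 37.2% at 600 bp to either side.

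Short words were counted on both strands of the summit windows as a description, without a test. GAGAG occurred in 71 of the 325 windows (21.8%), against 15.8% of flanking windows and 12.3% of eligible windows. Intron (19.2%), coding exon (17.0%) and promoter peaks (19.7%) had shares near that of the regions. CTGCGTCT was present in 12 (3.69%), against 0.923% of flanks and 0.666% of eligible windows, and promoter peaks had a similar share (3.93%). The B box occurred in 21 windows (6.46%), against 3.85% of flanks and 3.22% of eligible windows. AT-rich words were scarcer at the summit: TATAAA was found in 3.38% of windows against 10.9% of flanks, TGATAA in 4.92% against 9.23%, and TTTTT in 47.4% against 69.5%. Shares of TATAAA and TGATAA were also low at intron (3.76 and 5.09%), coding exon (2.30 and 5.90%) and promoter peaks (5.18 and 4.76%). TTTTT was found at 50.9% of intron, 24.8% of coding exon and 43.1% of promoter peaks, so its lower share was not particular to the regions. CACGTG, an E box, was found in 1.85% (0.680 to 3.97) against 1.38%, within counting error. Intron (2.88%), coding exon (3.77%) and promoter peaks (2.69%) had higher shares of it, inside that interval. G and C content rose from 36% in the flanks to 46.4% at the summit in the same windows, and its part in these shares was not tested. For the B box, the differences from intron, coding exon and promoter peaks did not pass (adjusted p of 0.345, 0.140 and 0.283, Fisher's exact test). Leaving out the tRNA-like regions lowered it to 3.31%, against 4.87, 3.93 and 4.55% in the 3 classes of peaks, which were left as they were.

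**Figure D4:**
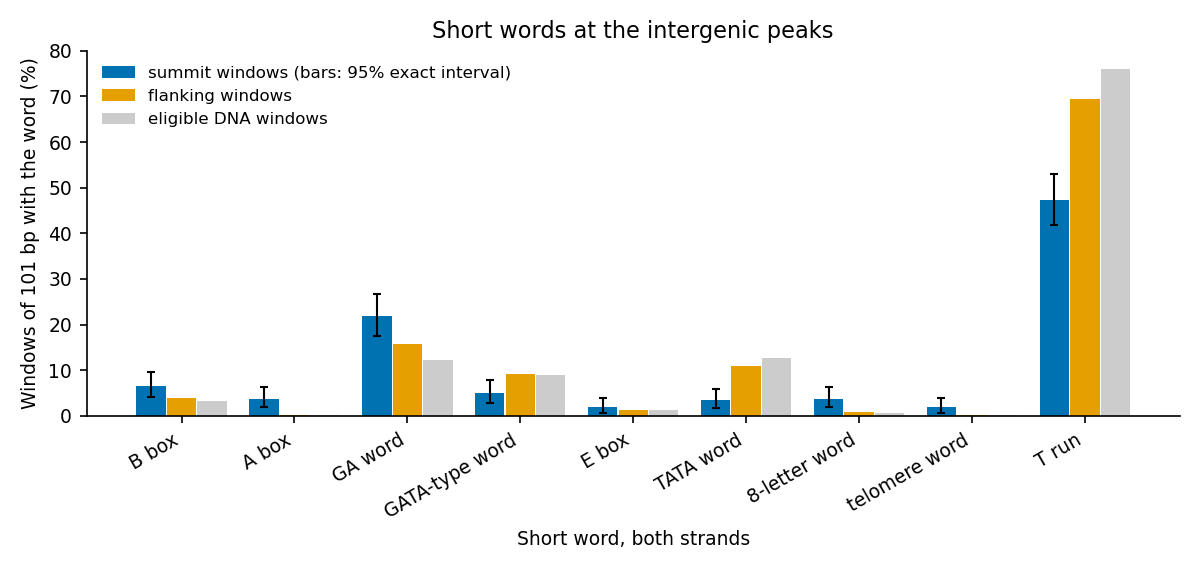
Share (%) of 101 bp windows that hold each short word on either strand, at the 325 summits (with exact 95% intervals), in flanking windows centred 300 bp away, and in eligible DNA. The A box stands at 3.69% of summits against 0.154% of flanks, and the T run at 47.4% against 69.5%; the GA word is GAGAG, the GATA-type word TGATAA, the E box CACGTG, the TATA word TATAAA, the 8-letter word CTGCGTCT and the T run TTTTT.

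The regions were not spread over the autosomes in proportion to eligible DNA. Chromosome III held 73 (22.5%) with 15.3% of the eligible DNA (exact binomial test, two-sided, adjusted over 5 autosomes, p = 0.00168), and chromosome I held 72 (22.2%) with 15.5% (adjusted p = 0.00269). Chromosome IV held 56 (17.2%) with 26.8% of the eligible DNA (exact binomial test, adjusted p = 2.88e-04). Chromosome II, with 60 regions (18.5% against 18.9%), and chromosome V, with 64 (19.7% against 23.5%), did not pass the threshold (adjusted p of 0.887 and 0.145). Median signal differed little between them, from 61.4 on chromosome III to 67.9 on chromosome II. Among the 77 regions with a score of 830 or more, chromosome III held 15.6%, close to its share of eligible DNA, and no autosome passed the test. In the list of replicate 2 alone chromosome IV passed (11.5%, exact binomial test, adjusted p = 0.00945), and in that of replicate 1 alone no autosome did (adjusted p = 0.884 for each).

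The chromosome middles held fewer regions than their eligible DNA. The middle 50% of each autosome held 132 of the 325 (40.6%, 35.2 to 46.2) with 48.5% of eligible DNA (exact binomial test, two-sided, p = 0.00463). Promoter peaks were in the middle more often (50.1%, adjusted p = 0.0239, Fisher's exact test), while the differences from intron peaks (33.6%, adjusted p = 0.0746) and coding exon peaks (46.2%, adjusted p = 0.140) did not pass. In the lists ranked on a single replicate, 50% of the 60 and of the 78 intergenic regions lay in the middle, so the deficit was not seen there, and with promoter windows from 2000 bp upstream it was -5.11 points (exact binomial test, p = 0.119). The difference from intron peaks passed in the list of replicate 2 alone, with 50% against 19.8% (Fisher's exact test, adjusted p = 3.22e-04), and with those wider promoter windows (9.28 points, adjusted p = 0.0449). How much of all intron, coding exon and promoter DNA lies in the middle was not measured, so the differences between classes describe the peaks only.

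The regions lay more often between genes that end towards each other. Of the 325, 86 (26.5%, 21.7 to 31.6) were between convergent protein-coding genes, with 16.7% of the eligible DNA (exact binomial test, two-sided, adjusted over 3 classes, p = 2.99e-05). Between divergent genes there were 71 (21.8% against 30.1%, exact binomial test, adjusted p = 0.00159), and between genes on the same strand 168 (51.7% against 53.1%, adjusted p = 0.617). The promoter windows excluded by the rule were removed from the eligible DNA as well. The excess at convergent genes passed the test in the list of each replicate alone, with 33.3% in replicate 1 and 32.1% in replicate 2, and among the 77 regions with a score of 830 or more (36.4%). The deficit at divergent genes did not, with 20, 32.1 and 19.5%. With neighbours of any gene class the excess was smaller, at 5.87 points (27.1% against 21.2%, exact binomial test, adjusted p = 0.0357). By kind, 14 of the 31 tandem repeats, 18 of the 49 other repeats, 7 of the 23 tRNA-like regions and 39 of the 188 single-copy regions were between convergent genes. The share was thus higher among tandem and other repeats than among single-copy regions, and the excess was not tested within a kind. A protein-coding 3′ end lay within 500 bp of 78 regions (24.0%) and of 16.4% of eligible windows, with median distances of 2233 and 3005 bp. P1 is 268 bp from the end of clp-4, and P8, on chromosome I, lies 197 bp from nlp-40, a neuropeptide gene, and 450 bp from rcor-1, the worm CoREST gene. P8 is single copy, with a signal of 76.5 in replicate 1 and 81.1 in replicate 2.

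**Figure D5:**
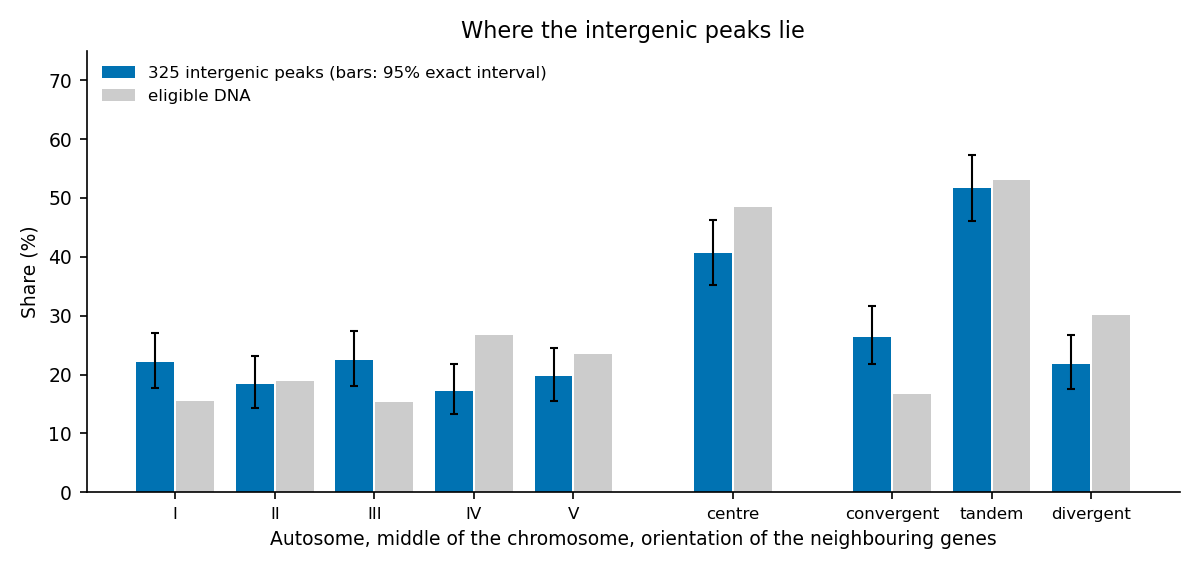
Share (%) of the 325 regions (blue, with exact 95% intervals) and of eligible DNA (grey) on each autosome, in the middle 50% of the chromosomes (centre), and between convergent, same-strand (tandem) and divergent protein-coding genes. Chromosomes I and III and convergent gaps hold more than their share of eligible DNA, and chromosome IV, the centres and divergent gaps hold less.

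A local cluster lay near the tagged gene, in a gap that does not adjoin it. Within 20 kb of F44E2.7 (chromosome III, 8845855 to 8848472, minus strand) there were 8 listed peaks, of which 7 belonged to the 325 regions. These 7 had summits from 8855879 to 8868116, in the gap between plg-1, which encodes the mucin of the copulatory plug, and K01F9.2. The 20308 bases of eligible DNA there would hold 0.420 at the mean density of the list. Around unc-119, which the transgene also carries, there were 0 regions and 0 listed peaks within 20 kb, where 5279 bases of eligible DNA would hold 0.109 regions. P43 had the highest signal of the 7 (85.6), with 62.9 in replicate 1 and no overlapping peak in replicate 2. P48 (83.7) had 22.2 in replicate 1 and 56.2 in replicate 2. P161 had 31.7 and 30.4, P217 had 35.7 and 24.4, and P233 had 28.0 and 32.0 in the 2 replicates, close to the medians of all regions. P258 and P325 are the pair of summits named above, at 44.6 in replicate 1 and 30.2 in replicate 2. Transgenic and endogenous copies of this sequence cannot be told apart, and whether the transgene includes this gap is not given in the labels. Without the 7, chromosome III held 66 of 318 regions (20.8%, 16.4 to 25.6), and its call and that of the convergent gaps were kept.

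Few of the regions had a listed peak close by. Another listed peak lay within 1000 bp of 41 regions (12.6%), compared with 19.0% of coding exon peaks (adjusted p = 0.0280, Fisher's exact test), 18.6% of intron peaks and 18.4% of promoter peaks (adjusted p of 0.0525 in both). The difference from coding exon peaks did not hold throughout. It changed sign among peaks of the conservative list (2.58 points) and in the lists of replicate 1 alone (3.33) and replicate 2 alone (4.72). It kept its sign but missed the threshold with scores of 830 or more, with promoter windows from 2000 bp upstream, with summits within 200 bp merged and without the tandem repeats (Fisher's exact test, adjusted p of 0.517, 0.0769, 0.0936 and 0.0920). The nearest gene of any class was at a median distance of 1014 bp (range 5 to 20410). The gap between annotated genes that held a region had a median length of 4245 bp, compared with 3816 bp for eligible windows.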

How the data were processed

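The files are 8 lists of peaks from ChIP-seq of tagged F44E2.7 in 2 biological replicates. Per the labels, chromatin was sonicated and peaks are on assembly ce11; the peak caller and the use of the control were not stated. The file notes name further input files of the lists beside the replicates' alignments, without giving their role. The lists were ranked or thresholded by the irreproducible discovery rate (IDR), which measures how well peak ranks repeat between a pair of lists. The score deposited by the authors follows the logarithm of the IDR and is capped at 1000, so that 540 equals an IDR of 0.05 and 830 equals 0.01. The signal deposited by the authors is an enrichment value without a stated scale. The deposited -log10 IDR values were read beside the score and chose no region.

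Gene positions came from the Ensembl annotation of WBcel235, and tRNA pseudogenes and bases from RefSeq. Summit windows reached 50 bp to either side, flanks were centred 300 bp away, and eligible windows were taken every 100 bp. Shares were tested by exact binomial and Fisher's exact tests with Benjamini-Hochberg adjustment at 0.05 within each family, and intervals are exact (Clopper-Pearson). They cover counting error only. Named regions were the 20 of highest signal, those thresholded in both replicates, and those with a B box or a match to a non-coding RNA gene, up to 10 by signal; further names came from the sequence groups and the F44E2.7 locus, after the values had been seen. The regions and lists were chosen with earlier results of these data known. The tRNA pseudogene search, tandem repeat measure, kinds, A box copies, locus, base profile and low-signal pairs were added after seeing the data. The exact binomial tests were checked on simulated positions drawn independently from eligible DNA. Close pairs and related copies, as found among the regions, were not built into them, and Fisher's exact tests were not checked. Similarity was searched with blastn 2.17.0, groups were built with networkx 3.6.1, and tests used scipy 1.17.1 under Python 3.11.15.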

Additional observations from a re-analysis of the deposited data

How the results depend on the processing

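The excess at convergent genes kept its direction and passed the test under every alternative run. So did the difference in repeated sequence from coding exon and from promoter peaks. The repeated share of coding exon and promoter DNA outside peaks was not measured, so that difference describes classes of peaks only. The rise in G and C content was 8.17 to 11.4 points in the alternatives, against 10.4 points in the main run. Over all alternatives, 248 of 334 values kept their direction and side of the threshold, or stayed close to the reported value where there is no test. For G and C content, close meant within 1 SD over regions (10.6 points), which is larger than the rise itself, so that label could hardly fail. Values below are differences in percentage points from eligible DNA or from the named class of peaks, and the causes were not tested.

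With scores of 830 or more there were 77 regions, of which 37.7% had repeated sequence, and fewer regions were tested. No longer past the threshold were chromosome I (5.26), chromosome III (0.251), chromosome IV (-8.61), the chromosome middle (-5.61) and divergent gaps (-10.6). The same held for repeated sequence against intron peaks (10.003), G and C content of 50% or more against coding exon (-19.3) and promoter peaks (-16.6), another peak nearby against coding exon peaks (-3.97) and the chromosome middle against promoter peaks (-14.3). Chromosome II changed sign (7.09).

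With peaks of the conservative list there were 75 regions, 33.3% of them repeated. Chromosome I (5.81), chromosome III (6.0), chromosome IV (-10.8), the middle (-8.46), repeated sequence against intron peaks (0.803) and the middle against promoter peaks (-18.1) no longer passed. Chromosome II (5.11), the middle against coding exon peaks (0.811) and another peak nearby against coding exon peaks (2.58) changed sign.

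With promoter windows from 2000 bp upstream, chromosome I (3.65), the middle (-5.11), another peak nearby against coding exon peaks (-6.25) and the middle against promoter peaks (-5.73) no longer passed. The middle against intron peaks (9.28) and another peak nearby against promoter peaks (-6.97) passed. Chromosome II (1.6) and the B box against intron (-0.396) and promoter peaks (-0.608) changed sign.

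With windows of 25 bp to either side, the B box against intron (-0.501) and promoter peaks (-0.538) and G and C content of 50% or more against intron peaks (3.67) changed sign, and the latter against promoter peaks (-3.48) no longer passed, nor did it with 100 bp (-4.86). Merging summits within 200 bp ended the call of another peak nearby against coding exon peaks (-4.71). With 36-mers 19.7% of regions were repeated, and with any repeated 24-mer 49.5%, where the difference from intron peaks (5.95) no longer passed.

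The other alternatives were chosen after seeing the data. They removed intergenic regions only and left the other classes of peaks as they were, so a share defined by what was removed had to move, and these values support nothing. Without regions within 20 kb of F44E2.7, another peak nearby passed against intron (-6.95) and promoter peaks (-6.79), as it did without regions of signal under 30 (-8.36 and -8.20). Without tRNA-like regions, the B box changed sign against intron (-1.56), coding exon (-0.623) and promoter peaks (-1.24). Without tandem repeats, 19.0% were repeated, same-strand gaps changed sign (0.976), and repeated sequence against intron peaks (1.57), another peak nearby against coding exon peaks (-5.75) and G and C content against promoter peaks (-8.47) no longer passed.

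Each replicate ranked alone gave 60 and 78 regions, of which 41.0 to 53.3% were repeated. The range over both was 2.81 to 8.84 for chromosome I, 4.45 to 9.32 for II, -3.67 to 2.62 for III, -15.2 to -1.79 for IV, 1.54 for the middle, -17.2 to -6.44 for same-strand gaps and -10.1 to 1.99 for divergent gaps. Against intron peaks it was 20.7 to 30.2 for the middle, 6.14 to 21.6 for repeated sequence, -6.26 to -2.20 for the B box, -20.6 to -17.1 for G and C content and -22.6 to 6.08 for another peak nearby. In replicate 2 alone the middle and G and C content against intron peaks and the deficit of same-strand gaps passed, and in replicate 1 alone another peak nearby against intron peaks did. Against coding exon peaks it was -10 to 4.67 for the middle, -30.5 to -11.7 for G and C content and 3.33 to 4.72 for another peak nearby, where G and C content missed the threshold in replicate 1 alone. Against promoter peaks it was -4.74 to 1.92 for the middle, -1.54 to 5.59 for the B box and -4.87 to 5.91 for another peak nearby.

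No paired analysis was possible because there is 1 group with 2 replicates. The lists hold no read counts, so depth is unknown, and the placement of reads on near-identical sequence was not stated. Peaks are not replicates, and p-values describe this list.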
